A study of Arabidopsis thaliana with 10 samples.

Results

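The tricarboxylic acid (TCA) cycle and pyruvate dehydrogenase genes were 31 nuclear genes of Arabidopsis thaliana chosen by locus code from the 27826 rows of the expression table, and each of the 31 had its own row. They encode the enzymes of the cycle other than succinate dehydrogenase, the subunits and kinase of the mitochondrial pyruvate dehydrogenase complex, and the NAD-malic enzymes. Transcript levels came from 10 Affymetrix arrays, 5 of Col-0 wild type and 5 of mcu123. The labels give mcu123 as a triple knockout of MCU genes, which encode pore subunits of the mitochondrial calcium uniporter, and its name was read as MCU1, MCU2 and MCU3. Both groups were roots of 20-day-old seedlings, cut from the shoot and frozen, from sterile hydroponics with 16 h of light at 21 °C and 8 h of darkness at 17 °C. Each array held RNA of pooled roots, and nothing in the labels ties a pool to a separate growth batch, so the spread behind the p-values is that between pools and may be technical. The alleles of mcu123 are not described in the labels.

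Pyruvate from glycolysis enters mitochondria and is oxidised to acetyl-CoA by pyruvate dehydrogenase, a complex of E1, E2 and E3 subunits. A kinase switches the complex off by phosphorylating E1. Citrate synthase joins acetyl-CoA to oxaloacetate, and aconitase, NAD-isocitrate dehydrogenase, oxoglutarate dehydrogenase, succinyl-CoA ligase, succinate dehydrogenase, fumarase and malate dehydrogenase regenerate oxaloacetate while passing electrons to NAD and ubiquinone. Plants can also bring carbon in as malate, which NAD-malic enzyme turns into pyruvate inside the mitochondrion. In mammals, matrix calcium raises the activity of pyruvate dehydrogenase phosphatase, NAD-isocitrate dehydrogenase and oxoglutarate dehydrogenase, which is an effect on proteins and not on transcripts.

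Values are log2 intensities after RMA, and all 10 arrays as deposited hold the same sorted values. A shift shared by all genes can therefore not be read from them. Levels of different genes cannot be set against each other, so the place of a marker on the scale is a rough guide. Of the log2 ratio of paralogues only its difference between arrays is read. Arrays correlated at 0.966 to 0.991 within a genotype and at 0.969 to 0.990 between genotypes over all rows. Of the targeted genes, MCU1 fell from 4.52 ± 0.23 (wild type) to 2.87 ± 0.16 (mcu123) and MCU3 from 6.12 ± 0.22 to 4.14 ± 0.28 (mean ± SD, n = 5 each, limma adjusted p = 4.0e-04 and 4.0e-04), with no overlap between the groups, while MCU2 was at 2.86 ± 0.29 in the wild type and 2.77 ± 0.27 in mcu123, near the low end of the scale in both. Array mcu123 replicate 3 lay apart from the other 9 along the first principal component, with the lowest array weight (0.39). Of the 10 root markers 9 had a mean above the array median of 4.30 and RHD6 was at 4.06 ± 0.29 in the wild type and 4.03 ± 0.25 in mcu123, and none of the 10 passed the test between genotypes. Of 8 markers of photosynthetic shoot tissue, LHCA1, PRK and SBPase lay near the bottom of the scale, LHCB5 was at 4.23 ± 0.28 in the wild type and 4.19 ± 0.56 in mcu123, and the other 4 had means above the array median, RCA at 4.72 ± 0.16 in the wild type and 4.49 ± 0.29 in mcu123, LHCB4.1 at 4.98 ± 0.50 in the wild type and 4.90 ± 0.30 in mcu123, LHCA4 at 6.95 ± 0.19 in the wild type and 7.002 ± 0.51 in mcu123 and RBCS1A at 5.56 ± 0.94 in the wild type and 6.03 ± 1.16 in mcu123. The mean of the 8 shoot markers ran from 3.55 to 4.20 over wild-type arrays and from 3.60 to 4.58 over mcu123 arrays, and their part in the results below was not tested.

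No TCA cycle or pyruvate dehydrogenase gene passed the test between genotypes. The limma count was 0 of 31 in either direction, where 0.0431% of all rows were called (0.00359% higher and 0.0395% lower), and the lowest adjusted p among the 31 was 0.44, for the malate dehydrogenase gene mMDH2. At an unadjusted p under 0.05 the count was 1 of 31, against 7.46% of all rows. Groups did not overlap in 1 of 31, again mMDH2 with the mutant higher, against 1.7% of all rows (0.683% higher and 1.02% lower). With an array left out, the share of all rows rose to between 2.27% and 5.18%. The count of members was then 3 without wild-type replicate 5 (all rows 3.35%) or mcu123 replicate 3 (5.18%), 2 without mcu123 replicate 1 (2.77%) or wild-type replicate 3 (2.63%), and 1 without any of the others. The 3 without wild-type replicate 5 were mMDH2, ACO1 and NAD-ME1. Beside mMDH2, the groups of MAB1 did not overlap without mcu123 replicate 1, nor those of IAR4 without wild-type replicate 3. The count at an unadjusted p under 0.05 was 2 when mcu123 replicate 3 was left out (mMDH2 and FUM1, against 11.6% of all rows). Means were higher in mcu123 for 20 and lower for 11 members, a share of 64.5% higher where 52.7% of all rows were higher, and the median log2 difference was 0.02 for the members and 0.01 for all rows. These shares and medians describe the 31 genes and carry no test.

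The intervals say how large a change these arrays leave room for. They rest on the same spread between pools as the p-values, which may be technical, so they may be too narrow as bounds on a change between genotypes. For 26 of the 31 genes the 95% limma interval of the log2 difference lay inside -0.5 to 0.5, that is within 1.41-fold either way, while 56.1% of all rows had an interval that narrow and that close to 0. The 5 whose interval reached further were mMDH2 (up to 0.68), the fumarase FUM1 (up to 0.64), the pyruvate dehydrogenase E1 alpha gene AT1G59900 (up to 0.62), the isocitrate dehydrogenase IDH2 (up to 0.53) and the kinase PDK (down to -0.60). For all 31 genes the interval excluded a 2-fold change, which held for 94.9% of all rows. The plot of differences by step shows the band from -0.5 to 0.5. The 26 and the 31 both include CSY5 and IDH3, which lay low in both genotypes. There a narrow interval may reflect background and does not bound a change in transcript. For 24 of the 30 genes reported one by one, leaving out an array moved the difference by more than 1.5 times or across 0. The other 6 were mMDH2, IAR4, MAB1, AT3G52200, ACO1 and NAD-ME1. A difference near 0 passes this limit through a small shift, as AT1G54220 did in going from 0.0012 to 0.060 without wild-type replicate 2. The share over all rows was not computed, so the count does not set these genes apart.

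**Figure D1:**
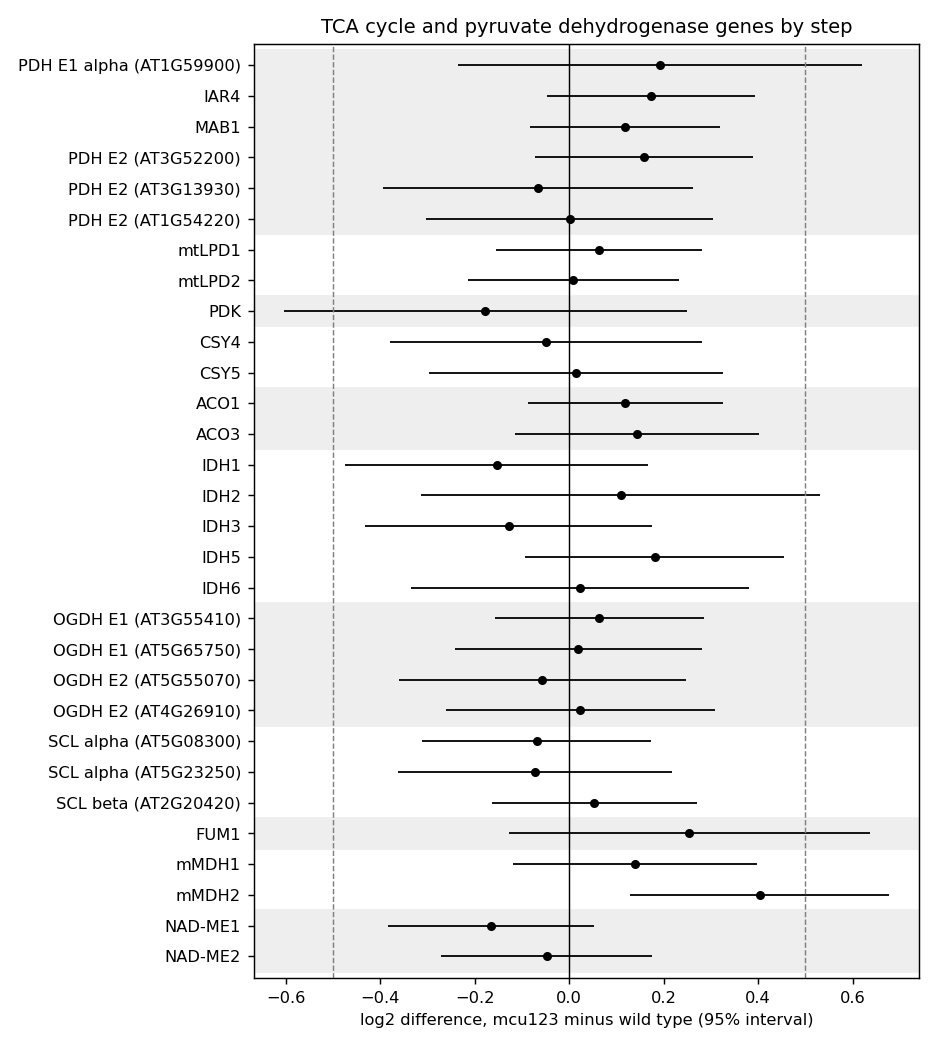
Log2 difference in level between mcu123 and wild type (x axis, mcu123 minus wild type) for 30 of the 31 genes (y axis), grouped by enzyme step with shaded bands; points are limma estimates from 5 arrays per genotype, bars 95% intervals, and dashed lines mark -0.5 and 0.5. The interval of mMDH2 (0.13 to 0.68) is the 1 that does not include 0, and 25 of the 30 intervals lie between the dashed lines.

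In the pyruvate dehydrogenase complex, 5 of 6 subunit genes had higher means in mcu123, by 0.0012 to 0.19 on the log2 scale, and none passed. IAR4 (AT1G24180), an E1 alpha gene first known from a mutant resistant to an auxin conjugate, measured 8.26, 8.08, 8.33, 8.28 and 8.28 in wild-type replicates 1 to 5 and 8.42, 8.52, 8.29, 8.35 and 8.52 in mcu123 replicates 1 to 5, the order used for all such lists below. Wild-type replicate 2 was the lowest array. The groups overlapped only in that wild-type replicate 3 (8.33) lay above mcu123 replicate 3 (8.29). Its log2 difference was 0.17 (95% interval -0.05 to 0.39, limma adjusted p = 0.75). Without mcu123 replicate 3 the IAR4 groups did not overlap and the difference was 0.21, and without wild-type replicate 2 it was 0.13. The other E1 alpha gene, AT1G59900, had group means of 8.29 ± 0.40 in the wild type and 8.48 ± 0.28 in mcu123 and a difference of 0.19, which was 0.03 without wild-type replicate 2, its lowest array at 7.63, and 0.30 without mcu123 replicate 3.

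MAB1 (AT5G50850), the single E1 beta gene of the set, stood at 8.28 ± 0.05 in the wild type and 8.40 ± 0.06 in mcu123, and its log2 difference was 0.12 (-0.08 to 0.32, limma adjusted p = 0.82). Its pooled SD between arrays of a genotype was 0.06, smaller than that of all but 0.101% of rows. The E2 subunit carries the lipoyl arm that hands the acetyl group to CoA. Of the 3 E2 genes, AT3G52200 (LTA3) measured 8.33, 8.18, 7.997, 8.19 and 8.21 in the wild type and 8.27, 8.19, 8.43, 8.47 and 8.34 in mcu123, with overlapping groups and a difference of 0.16 (-0.07 to 0.39, limma adjusted p = 0.8). AT3G13930 measured 8.77, 8.93, 8.48, 8.70 and 8.73 in the wild type and 8.55, 8.37, 9.16, 8.65 and 8.54 in mcu123. Its highest array was mcu123 replicate 3, and the difference of -0.07 became -0.19 without that array. AT1G54220 had a difference of 0.0012, which was -0.08 without mcu123 replicate 3.

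The dihydrolipoyl dehydrogenases, the E3 subunits that pyruvate dehydrogenase shares with oxoglutarate dehydrogenase and other mitochondrial complexes, varied little between arrays, with a pooled SD of 0.10 for mtLPD1 and 0.11 for mtLPD2. mtLPD1 (AT1G48030) measured 7.41, 7.23, 7.52, 7.45 and 7.43 in the wild type and 7.49, 7.54, 7.39, 7.39 and 7.56 in mcu123, with overlapping groups and a log2 difference of 0.06 (-0.15 to 0.28, limma adjusted p = 0.92), or 0.019 without wild-type replicate 2. mtLPD2 (AT3G17240) differed by 0.0088 (-0.21 to 0.23), with mcu123 replicate 3 highest at 7.35, and by -0.044 without that array. The kinase gene PDK (AT3G06483), whose product inactivates the complex, measured 5.23, 5.58, 5.49, 5.32 and 5.04 in the wild type and 5.50, 5.003, 4.47, 5.52 and 5.27 in mcu123. Its lowest array was mcu123 replicate 3, and its highest was wild-type replicate 2. The PDK difference of -0.18 (-0.60 to 0.25, limma adjusted p = 0.88) was -0.0062 without mcu123 replicate 3 and -0.27 without mcu123 replicate 4.

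**Figure D2:**
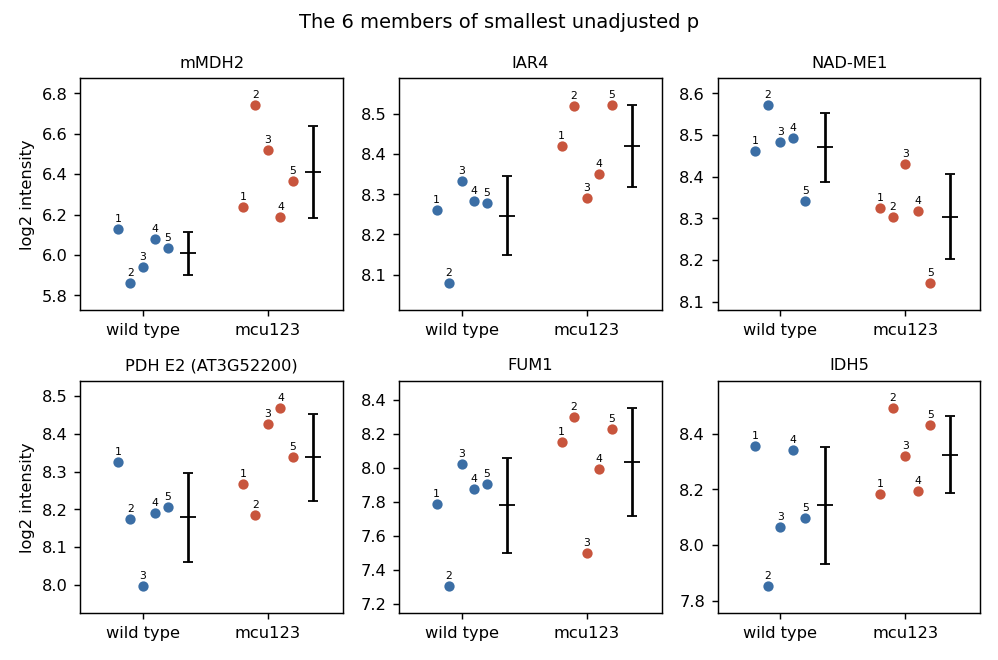
Log2 intensity (y axis) in each array of wild type (blue) and mcu123 (red) for the 6 genes of smallest unadjusted p; numbers are replicates, and the black bar is the mean ± SD of 5 arrays. The mMDH2 groups do not overlap (wild type up to 6.13, mcu123 from 6.19), and the other 5 genes overlap.

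Citrate synthase and aconitase take acetyl-CoA to isocitrate. CSY4 (AT2G44350), the mitochondrial citrate synthase, measured 8.76, 8.87, 8.60, 8.80 and 8.99 in the wild type and 8.74, 8.38, 9.25, 8.69 and 8.72 in mcu123. The mcu123 arrays included both the highest value of the 10 (replicate 3) and the lowest (replicate 2), and the log2 difference was -0.05 (-0.38 to 0.28, limma adjusted p = 0.96). It was -0.17 without mcu123 replicate 3 and 0.045 without mcu123 replicate 2. CSY5 (AT3G60100) had very low values throughout, at 1.77 ± 0.27 in the wild type and 1.78 ± 0.17 in mcu123, where signal and background cannot be told apart without detection calls.

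Among the aconitases, ACO1 (AT4G35830) measured 9.77, 9.65, 9.72, 9.77 and 9.90 in the wild type and 9.89, 9.90, 9.94, 9.82 and 9.86 in mcu123. The wild-type range of 9.65 to 9.90 reached the mcu123 range of 9.82 to 9.94 only through wild-type replicate 5. The difference was 0.12 (-0.09 to 0.33, limma adjusted p = 0.82), and 0.15 without that array, when the groups did not overlap. ACO3 (AT2G05710) measured 9.67, 9.88, 9.68, 9.50 and 9.78 in the wild type and 9.82, 9.67, 10.12, 9.86 and 9.74 in mcu123. Its difference of 0.14 (-0.12 to 0.40) was 0.07 without mcu123 replicate 3, the highest array.

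NAD-isocitrate dehydrogenase, which releases the first carbon dioxide of the cycle, is built from catalytic and regulatory subunits. The catalytic gene IDH5 (AT5G03290) measured 8.36, 7.85, 8.07, 8.34 and 8.10 in the wild type and 8.18, 8.49, 8.32, 8.19 and 8.43 in mcu123. Wild-type replicate 2 was lowest, the groups overlapped, and the log2 difference was 0.18 (-0.09 to 0.45, limma adjusted p = 0.8), or 0.11 without that array. The other catalytic gene, IDH6 (AT3G09810), differed by 0.02, with wild-type replicate 5 lowest at 5.21, and by -0.11 without it or 0.10 without wild-type replicate 4.

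For the 3 regulatory genes every interval included 0. IDH1 (AT4G35260) was at 6.78 ± 0.18 in the wild type and 6.63 ± 0.27 in mcu123, a difference of -0.15 (-0.47 to 0.17), and IDH2 (AT2G17130) at 7.06 ± 0.26 in the wild type and 7.17 ± 0.40 in mcu123, a difference of 0.11 (-0.31 to 0.53). The IDH1 difference was -0.061 without mcu123 replicate 5 and -0.24 without mcu123 replicate 3. That of IDH2 was -0.0016 without wild-type replicate 5 and 0.28 without mcu123 replicate 2. The spread of IDH2 came from wild-type replicate 5 (6.62) and mcu123 replicate 2 (6.50), where the other 8 arrays lay between 7.07 and 7.46. IDH3 (AT4G35650) lay low in both genotypes, at 2.17 ± 0.23 in the wild type and 2.04 ± 0.19 in mcu123, with a difference of -0.13 (-0.43 to 0.17), which was -0.058 without wild-type replicate 5 and -0.21 without wild-type replicate 1.

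Oxoglutarate dehydrogenase, built on the same plan as pyruvate dehydrogenase, showed differences of -0.06 to 0.06 over its 4 E1 and E2 genes. The E1 gene AT3G55410 measured 8.21, 8.15, 8.31, 8.11 and 8.28 in the wild type and 8.24, 8.36, 8.41, 8.12 and 8.25 in mcu123, with overlapping groups (log2 difference 0.06, -0.16 to 0.28, limma adjusted p = 0.92). Its difference was 0.030 without mcu123 replicate 3 and 0.10 without mcu123 replicate 4. AT5G65750, the other E1 gene, differed by 0.02, and the E2 genes AT5G55070 and AT4G26910 by -0.06 and 0.02. For AT5G55070 the value was -0.15 without mcu123 replicate 3, its highest array at 8.01. These 3 genes each changed sign when some array was left out.

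Succinyl-CoA ligase forms succinate and a nucleoside triphosphate. Its alpha gene AT5G08300 measured 7.03, 6.56, 6.93, 6.81 and 6.95 in the wild type and 6.74, 6.83, 6.78, 6.76 and 6.83 in mcu123. The mcu123 arrays lay inside the wild-type range, and the difference was -0.07 (-0.31 to 0.17, limma adjusted p = 0.93). That range reached down through wild-type replicate 2 (6.56), without which the difference was -0.14, and it was -0.026 without wild-type replicate 1. The alpha gene AT5G23250 differed by -0.07 and the beta gene AT2G20420 by 0.05, which were 0.00063 without mcu123 replicate 3 and 0.015 without mcu123 replicate 5. FUM1 (AT2G47510), the mitochondrial fumarase, measured 7.79, 7.30, 8.02, 7.88 and 7.91 in the wild type and 8.15, 8.30, 7.50, 7.99 and 8.22 in mcu123. Wild-type replicate 2 and mcu123 replicate 3 were lowest in their genotypes, about 0.59 and 0.67 under the mean of the other 4. The FUM1 difference of 0.25 (-0.13 to 0.64, limma adjusted p = 0.8) was 0.39 without mcu123 replicate 3 (limma adjusted p = 0.36) and 0.14 without wild-type replicate 2.

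The mitochondrial malate dehydrogenases close the cycle by regenerating oxaloacetate. mMDH2 (AT3G15020) measured 6.13, 5.86, 5.94, 6.08 and 6.03 in the wild type and 6.24, 6.74, 6.52, 6.19 and 6.37 in mcu123. Every mcu123 array lay above every wild-type array, from 6.19 in mcu123 replicate 4 against at most 6.13 in wild-type replicate 1. Its group means were 6.01 ± 0.11 in the wild type and 6.41 ± 0.23 in mcu123, a level 1.32-fold higher in mcu123 (log2 difference 0.40, 0.13 to 0.68), which did not pass over all rows (limma adjusted p = 0.44). The value was 0.32 without mcu123 replicate 2, the highest array, and 0.38 without mcu123 replicate 3. mMDH1 (AT1G53240) measured 8.96, 8.56, 8.93, 8.87 and 8.83 in the wild type and 8.76, 9.18, 9.05, 8.93 and 8.93 in mcu123. Its groups overlapped widely, and the difference of 0.14 (-0.12 to 0.40, limma adjusted p = 0.84) was 0.07 without wild-type replicate 2.

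The NAD-malic enzymes had lower means in mcu123, and neither passed. NAD-ME1 (AT2G13560) measured 8.46, 8.57, 8.48, 8.49 and 8.34 in the wild type and 8.33, 8.30, 8.43, 8.32 and 8.14 in mcu123. The groups overlapped through wild-type replicate 5 and mcu123 replicate 3. The difference was -0.17 (-0.38 to 0.05, limma adjusted p = 0.77), and -0.20 without mcu123 replicate 3, when the groups did not overlap. NAD-ME2 (AT4G00570) measured 7.78, 7.74, 7.75, 7.73 and 7.94 in the wild type and 7.62, 7.65, 7.92, 7.69 and 7.81 in mcu123. Wild-type replicate 5 stood above the other wild-type arrays at the level of mcu123 replicate 3, and the difference was -0.05 (-0.27 to 0.18), or -0.010 without the former array and -0.093 without the latter.

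Paralogues of a step were compared by their log2 ratio within each array, over all 18 pairs in 12 families, with an exact two-sided permutation test over the arrays. The p-values were adjusted over the 18 pairs. No pair passed after adjustment, and 1 had an exact p under 0.05. A lone pair at the smallest exact permutation p that these arrays allow would have an adjusted p of 0.14. No pair could therefore pass alone, and the absence of a passing pair decides little. The mMDH1 to mMDH2 log2 ratio measured 2.83, 2.70, 2.98, 2.79 and 2.80 in the wild type and 2.52, 2.43, 2.53, 2.74 and 2.57 in mcu123. The ratio was lower in mcu123 except that mcu123 replicate 4 (2.74) lay above wild-type replicate 2 (2.70). It differed by -0.26 (-0.42 to -0.10, exact permutation p = 0.016, adjusted p = 0.29), where the smallest p that 5 against 5 arrays can give is 0.0079.

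For the pyruvate dehydrogenase E2 genes AT3G52200 to AT3G13930 the log2 ratio measured -0.44, -0.75, -0.49, -0.51 and -0.53 in the wild type and -0.29, -0.18, -0.74, -0.19 and -0.20 in mcu123. The mcu123 arrays lay above the wild type except replicate 3, and the difference of 0.22 (-0.05 to 0.50, exact permutation p = 0.087, adjusted p = 0.52) was 0.33 without that array (exact permutation p = 0.0079, adjusted p = 0.14). The other 14 pairs reported differed by -0.26 to 0.24, with exact permutation p of 0.26 or more and 95% intervals that include 0. Among them NAD-ME1 to NAD-ME2 differed by -0.12 (exact permutation p = 0.26), and by -0.19 without wild-type replicate 5 (exact permutation p = 0.032, adjusted p = 0.19). The count of pairs with an exact p under 0.05 was 3 of 18 without that array, 2 without mcu123 replicate 3, 1 without any other array, and 0 with the replicate block, where no p under 0.063 is possible. The intervals were widest for the pairs with IDH2, where IDH1 to IDH2 ran from -0.94 to 0.41. How far probes of a gene also bind transcripts of its paralogue was not tested.

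**Figure D3:**
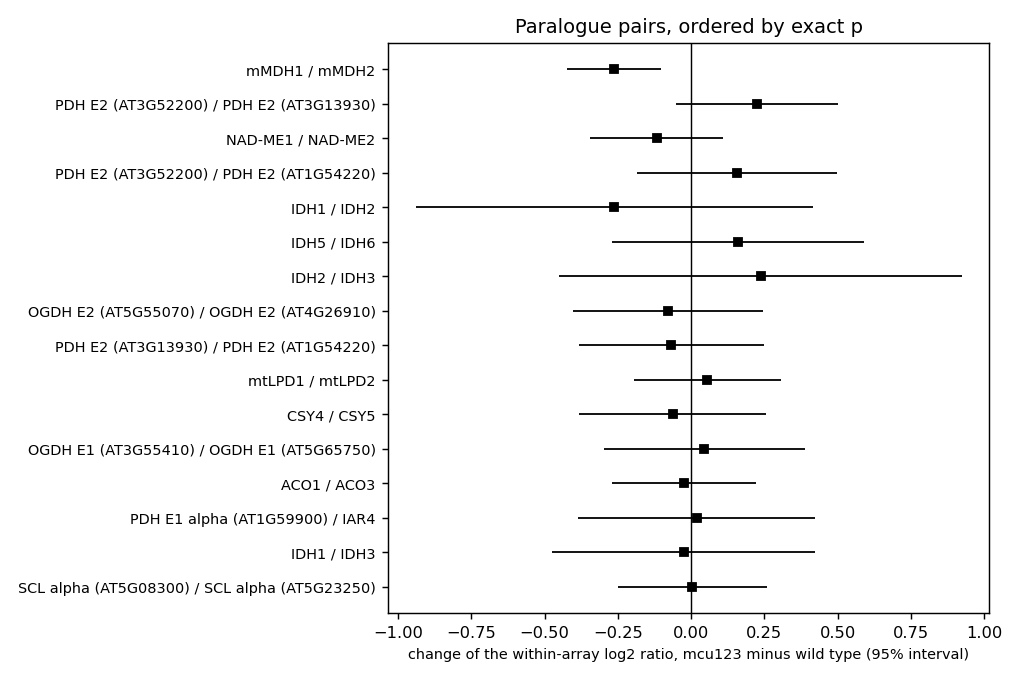
Change of the within-array log2 ratio of paralogues between mcu123 and wild type (x axis, mcu123 minus wild type) for 16 of the 18 pairs (y axis), ordered by exact p; squares are differences of the means of 5 arrays per genotype and bars 95% intervals from their pooled spread. The interval of mMDH1 over mMDH2 runs from -0.42 to -0.10, and no pair passed after adjustment, which none could do alone.

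The highest and lowest values of the 31 genes were not spread evenly over the 10 arrays, which is a description and carries no test. mcu123 replicate 3 held the highest of the 10 values for 10 of the 31 genes, or 32.3%, where it was highest for 15.2% of all rows. These 10 were CSY4, ACO1, ACO3, IDH1, IDH2, mtLPD2, the oxoglutarate dehydrogenase genes AT3G55410 and AT5G55070, and the pyruvate dehydrogenase E2 genes AT3G13930 and AT1G54220. Wild-type replicate 2 held the lowest value for 10 genes, also 32.3%, against 15.4% of all rows. They were IAR4, MAB1, AT1G59900, mtLPD1, ACO1, IDH5, AT5G08300, FUM1, mMDH1 and mMDH2. ACO1 is on both lists.

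In mcu123 replicate 3, 5 members stood more than 0.5 away from the average of the 4 remaining mutant arrays, with CSY4 (9.25 against 8.63) and AT3G13930 (9.16 against 8.53) above and FUM1 (7.50 against 8.17), AT1G59900 (8.03 against 8.59) and PDK (4.47 against 5.33) below. That is 16.1% of the members, where 22.3% of all rows stood as far from the other arrays. These genes were picked by their distance in that array, at a share below that of all rows, so no pattern of enzyme roles is read from them. In the other 9 arrays 0 to 2 members (up to 6.45%) stood that far from their genotype, where 6.95% to 16.9% of all rows did, the farthest being IDH2 in mcu123 replicate 2 (6.50 against 7.34) and AT1G59900 in wild-type replicate 2 (7.63 against 8.45). Without mcu123 replicate 3 the count called stayed at 0, the count with groups that did not overlap was 3 (mMDH2, IAR4 and NAD-ME1) against 5.18% of all rows, and the median difference of the members was 0.00063.

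**Figure D4:**
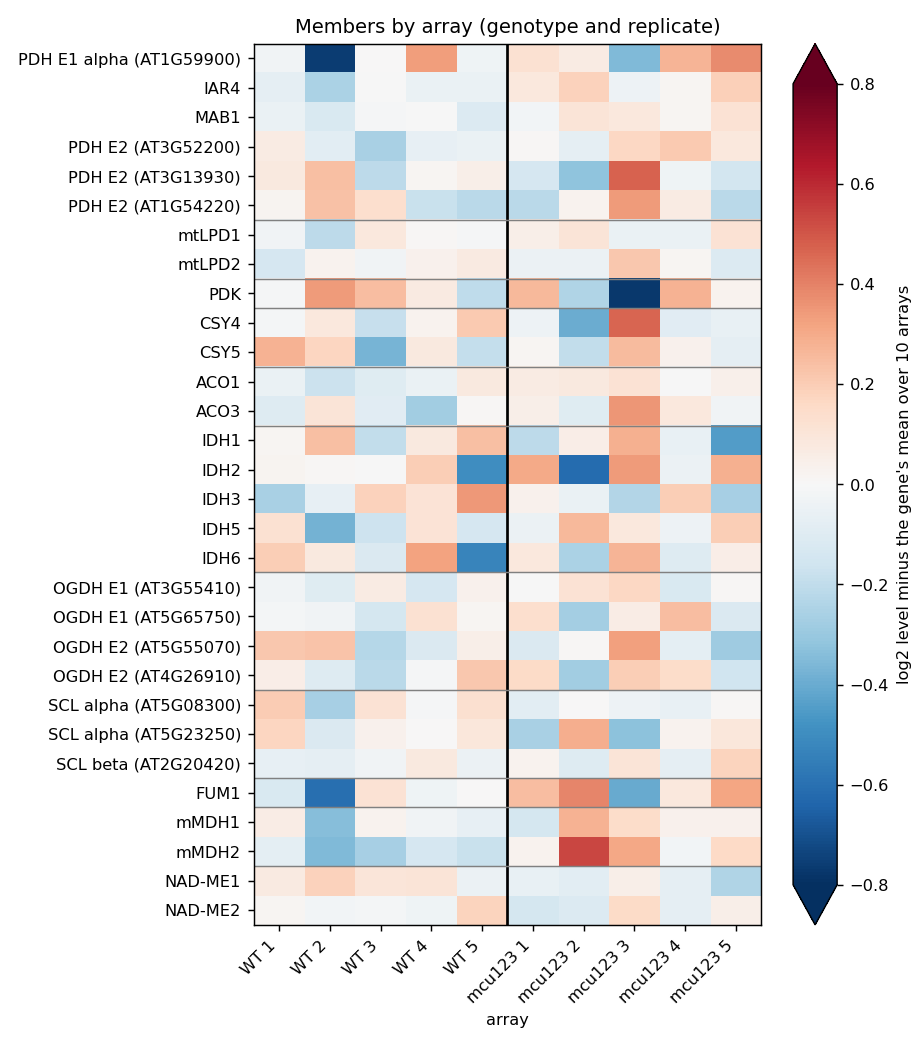
Level of 30 of the 31 genes (rows, grouped by step) in each array (columns, wild type left and mcu123 right of the line), as the log2 level minus that gene's mean over the 10 arrays (colour scale). Red and blue columns stand out for wild-type replicate 2 and mcu123 replicate 3, and the mMDH2 row is blue in the wild type; only mMDH2 has no overlap between the genotypes.

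The other genes of carboxylic acid metabolism were 67 genes in 6 lists, and none passed (limma count 0 of 67; 9 higher and 2 lower at an unadjusted p under 0.05, against 3.38% and 4.08% of all rows). Among 12 succinate dehydrogenase genes, the enzyme that links the cycle to the respiratory chain, the median log2 difference was 0.12, or 0.065 without wild-type replicate 2 and 0.036 without mcu123 replicate 2. The smallest p was that of SDH3-1, a membrane anchor gene low on the scale, which ran from 0.60 to 2.51 in the wild type and from 1.31 to 5.10 in mcu123, with mcu123 replicate 2 highest (difference 1.24, limma adjusted p = 0.67), and the difference was 0.73 without that array. Of 16 isoenzymes outside mitochondria the median was 0.03 (0.012 to 0.066 with an array left out, lowest without wild-type replicate 3 and highest without wild-type replicate 5), and NADP-ME2, a cytosolic malic enzyme, was at 10.78 ± 0.18 in the wild type and 10.43 ± 0.14 in mcu123 (difference -0.35, limma adjusted p = 0.51). Of 14 genes of carbon entry and carriers the median was 0.05 (-0.011 without mcu123 replicate 2 and 0.019 without mcu123 replicate 5), and SFC, a mitochondrial carrier named after the yeast succinate-fumarate carrier, was at 5.57 ± 0.22 in the wild type and 6.03 ± 0.17 in mcu123 (difference 0.46, limma adjusted p = 0.39).

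In the plastid pyruvate dehydrogenase list, which supplies acetyl-CoA for fatty acid synthesis, all 7 genes had higher means in mcu123, with a median log2 difference of 0.29, and none passed. Its E1 alpha gene AT1G01090 measured 8.35, 7.83, 8.36, 8.18 and 8.22 in the wild type and 8.50, 8.75, 8.55, 8.51 and 8.48 in mcu123. The groups did not overlap, and the difference was 0.38 (0.11 to 0.64, limma adjusted p = 0.48). That difference was 0.29 without wild-type replicate 2 and 0.33 without mcu123 replicate 2. AT1G01090 was the only 1 of the 67 related genes whose groups did not overlap, against 1.7% of all rows. The list median per array, taken from each gene's mean, was -0.55 in wild-type replicate 2, -0.15 to -0.01 in the other wild-type arrays and 0.04 to 0.21 in mcu123. Without wild-type replicate 2 the median difference was 0.20, and without wild-type replicate 1 it was 0.35. The difference between this list and the mitochondrial genes was not tested.

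In the list of 11 genes of glycine decarboxylase and branched-chain ketoacid dehydrogenase, which use the same E3 subunits, the median was 0.17. It was 0.077 without mcu123 replicate 5 and 0.22 without mcu123 replicate 3. GLDP1 was at 6.15 ± 0.12 in the wild type and 6.51 ± 0.24 in mcu123 (difference 0.36, limma adjusted p = 0.55). In the list of 7 genes of ATP-citrate lyase and the glyoxylate cycle the median was 0.27, or 0.19 without wild-type replicate 2 and 0.15 without mcu123 replicate 2, and ACLB-1 was at 7.92 ± 0.15 in the wild type and 8.21 ± 0.10 in mcu123 (difference 0.29, limma adjusted p = 0.56).

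**Figure D5:**
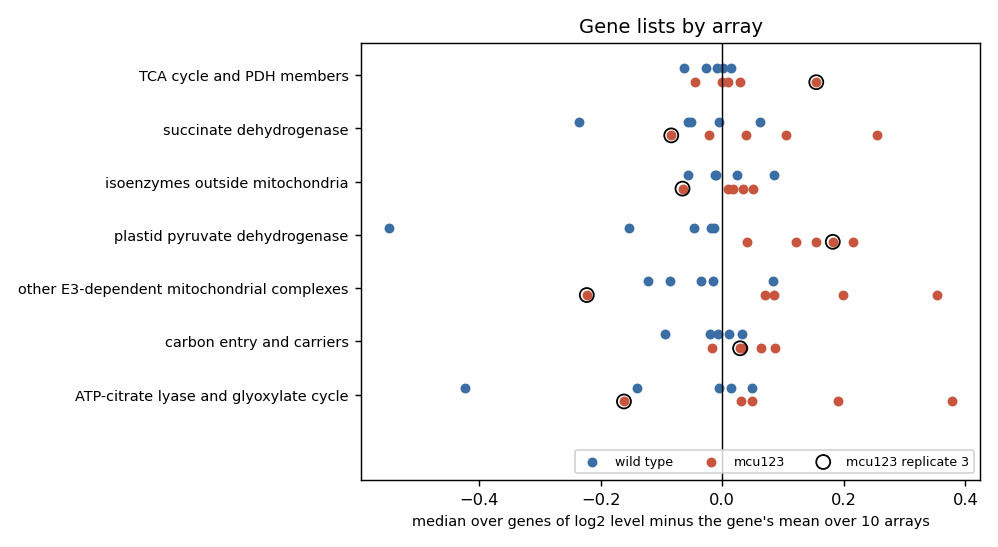
Median over the genes of a list of the log2 level minus each gene's mean over the 10 arrays (x axis), for the 31 TCA cycle and pyruvate dehydrogenase genes and 6 related lists (y axis); each point is an array of wild type (blue) or mcu123 (red), and mcu123 replicate 3 is circled. For the 31 genes the arrays mix apart from mcu123 replicate 3 at 0.15, while for the plastid list the wild-type arrays lie at -0.01 or below and the mcu123 arrays at 0.04 or above.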

How the data were processed

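Total RNA was labelled as biotinylated cRNA and hybridised to Affymetrix arrays, per the labels' protocols. The authors deposited RMA values, per the submitters' processing notes, which are log2 intensities, and the 10 deposited columns share 1 sorted distribution. For the array model, probe grouping and genome build the sources used here give nothing. No detection calls were used, and precision is limited by the number of arrays. The genotypes were compared gene by gene using limma 3.58.1 under R 4.3.3 (lmFit, eBayes, genotype as the only term, two-sided, Benjamini-Hochberg over 27826 rows, threshold 0.05), with no filter. The members, the related lists, the tests and the rule for naming genes were chosen with earlier results of these data known. The rule gave values in every array for the member of smallest p in each step, the 6 of smallest p, the 3 paralogue pairs of smallest p and members with an array far from the others, and named the gene of smallest p in each related list. Gene names come from the lists, and RefSeq (TAIR10.1) gives a symbol for 22 of the 31. Of the members 1, and the 2 pairs that hold it, are not reported here, but they stay in the counts and adjustments. Scripts were tested on simulated data. Of 68 related genes, 67 had a row. Deviations of same-numbered replicates correlated at -0.21 to 0.09 over all rows, which carries no test and cannot exclude shared handling. In the main tests the replicate number was therefore used only to name an array. The replicate block, a setting given below, matched arrays of the same number. The sources used here give no scan date or batch.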

Additional observations from a re-analysis of the deposited data

Results flagged for a closer look

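In 118 sets of 5 arrays, the array farthest from the others was examined by the share of the whole range that separates it from its neighbour, with a limit of 0.71. Chance passes about 1 in 20, or 5.9 sets, and 5 passed. IAR4 in wild-type replicate 2 was at 8.08, where the other 4 averaged 8.29 ± 0.03 (share 0.723). NAD-ME2 in wild-type replicate 5 was at 7.94 against 7.75 ± 0.02 (0.767). The plastid E1 alpha gene AT1G01090 in mcu123 replicate 2 was at 8.75 against 8.51 ± 0.03 (0.734). The log2 ratio of the mitochondrial E2 genes AT3G52200 and AT3G13930 was low in an array of each genotype, at -0.75 in wild-type replicate 2 against -0.49 ± 0.04 (0.72) and at -0.74 in mcu123 replicate 3 against -0.21 ± 0.05 (0.811).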

How the results depend on the processing

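The settings tried beside the values as deposited were cyclic loess, array weights, a robust prior with a trend, a filter on the dimmest 30% of rows, the replicate block, group medians for the pairs, and leaving out each array in turn. The count of members called, of related genes called and of pairs passing after adjustment was 0 in each of those that applied. For the pairs this decides little, since no pair could pass alone and with the replicate block none could pass at all. The count called over all rows was 12 as deposited, 7 with the dim rows dropped, 35 with the trended prior, 30 with array weights, 8 with the replicate block and 5 to 22 with an array left out. The count of members whose groups did not overlap was 1, and 1 to 3 with an array left out. The share of all rows was 1.7%, and 2.27% to 5.18% with an array left out. The median difference of the members was 0.02, and 0.00063 to 0.07 with an array left out. For mMDH2 the difference was 0.30 (array weights) to 0.46 over the settings, with limma adjusted p from 0.32 to 0.76 (replicate block), and mMDH1 to mMDH2 with the replicate block gave an exact permutation p of 0.063 (adjusted 0.56), the smallest that 5 pairs allow.

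Of the 30 differences reported 12 took the other sign in some setting, and none of the 12 exceeded 0.18 in size as deposited. With an array left out the differences ran for CSY4 -0.17 to 0.045, CSY5 -0.076 to 0.085, IDH2 -0.00161 to 0.28, IDH6 -0.11 to 0.10, AT5G65750 -0.039 to 0.091, AT5G55070 -0.15 to 0.00718, AT4G26910 -0.027 to 0.096, AT5G23250 -0.15 to 0.000635, AT3G13930 -0.19 to 0.00596, AT1G54220 -0.084 to 0.060 and mtLPD2 -0.044 to 0.037, and the log2 ratios for AT3G13930 to AT1G54220 (-0.16 to 0.011), CSY4 to CSY5 (-0.14 to 0.028), AT3G55410 to AT5G65750 (-0.047 to 0.14), ACO1 to ACO3 (-0.095 to 0.032), AT1G59900 to IAR4 (-0.10 to 0.12), IDH1 to IDH3 (-0.16 to 0.048) and AT5G08300 to AT5G23250 (-0.068 to 0.075). Cyclic loess put AT1G54220 at -0.00716 and mtLPD2 at -0.00266, and the log2 ratio AT5G08300 to AT5G23250 at -0.000857. Array weights put CSY5 at -0.020, IDH6 at -0.059, AT1G54220 at -0.038, mtLPD2 at -0.00505 and PDK at 0.00334. Group medians put the log2 ratios AT3G13930 to AT1G54220 at 0.015 and AT5G08300 to AT5G23250 at -0.12. The cause was not tested.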

Other observations

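The 31 genes varied little between arrays of a genotype. Their median pooled SD was 0.18 on the log2 scale, against 0.25 over all rows, and 26 of 31 lay below the median of all rows. Of the 31, 10 were among the steadiest 5% of rows: MAB1 (0.06), ACO1 (0.07), NAD-ME1, the succinyl-CoA ligase beta gene AT2G20420 and mtLPD1 (0.09, 0.09 and 0.10), IAR4, the oxoglutarate dehydrogenase E1 gene AT3G55410, mtLPD2 and NAD-ME2 (0.10 to 0.11) and the pyruvate dehydrogenase E2 gene AT3G52200 (0.12). The most variable were the E1 alpha gene AT1G59900 (0.35), PDK (0.34), IDH2 (0.34) and FUM1 (0.30). The spread of a row also depends on its level and on its probes, so these values rank no regulation.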
